A study of Mus musculus with 9 samples.

Results

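RAW264.7, a mouse macrophage line, was profiled by RNA-seq after LPS with and without G-CDs, and the 3 LPS + G-CDs libraries are compared here with the 3 LPS libraries. Genes with an FPKM (reads scaled to gene length and library size) of at least 1 in 3 or more of these 6 libraries were tested, which gave 11015 of 54532 genes in the table, 9450 of them protein coding. The LPS group received LPS, which is shed from the envelope of Gram-negative bacteria, at 1 μg/ml for 6 h, and the LPS + G-CDs group received the same LPS together with G-CDs, carbon dots made from Glycyrrhiza (licorice), at 400 μg/ml. A control group of 3 libraries, which had neither agent, shared the estimate of the spread, and its values are given beside some results. No group received G-CDs without LPS, so a change with G-CDs in resting cells was not measured. The sample titles name G-CDs, while the treatment field of these samples gives LPS alone, and the groups follow the titles. Nothing in the labels says that the libraries came from separate cultures, so the p-values measure the spread between these libraries, which may be technical. Weight was put on genes outside the heatmap of antioxidant and inflammatory genes that the study drew from these libraries, which holds 18 genes. Among the members that lay just inside the filter, 367 genes reached an FPKM of 1 in exactly 3 of the 6 libraries, with a median third-highest FPKM of 1.15. The 448 genes just outside it reached that level in exactly 2 libraries, with a median third-highest FPKM of 0.832.

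LPS is sensed by macrophages through Toll-like receptor 4, which starts NF-κB and MAP kinase signaling and, within hours, the transcription of cytokines, chemokines and enzymes such as inducible nitric oxide synthase. Oxidants and electrophiles act on another pathway, in which Keap1 no longer sends the transcription factor Nrf2 to the proteasome. Nrf2 then binds antioxidant response elements and raises genes for glutathione synthesis, thioredoxin, heme breakdown, iron storage and the supply of NADPH.

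The cells carried the mark of macrophages in all 9 libraries. Of 10 macrophage markers, 8 passed the filter, and Mertk was listed at 0 throughout. The summed level of these markers ranged from 3853 to 4071 FPKM in the LPS libraries and from 3232 to 5334 FPKM in the LPS + G-CDs libraries, most of it from Cd14 and Lyz2. Adgre1 (F4/80) was at 27.1, 27.4 and 27.3 FPKM with LPS and 19.5, 17.9 and 13.9 FPKM with G-CDs, lower without overlap and past the looser threshold defined below (limma adjusted p = 0.12), and Itgam (CD11b) was at 11.6, 12.7 and 13.3 FPKM and 8.67, 9.68 and 9.04 FPKM, also without overlap (limma adjusted p = 0.31). Markers of T cells, B cells, fibroblasts, endothelial, epithelial and erythroid cells were all below 1 FPKM in every library, as were 6 of 7 neutrophil markers, whose sum reached at most 2.44 FPKM. RNA was taken from bulk cultures, in which fewer cells with a transcript and less transcript per cell cannot be told apart.

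The libraries held between 14752400 and 17312255 reads on genes across the 6 libraries, and mitochondrially encoded genes took between 1.11% and 1.85% of them. The LPS libraries lay close together and the LPS + G-CDs libraries did not. Pearson's r across genes between replicates was 0.987 to 0.989 for LPS and 0.931 to 0.975 for LPS + G-CDs, and the median replicate SD of a gene was 0.0848 and 0.261 on the log2(FPKM + 1) scale. The spread of the LPS + G-CDs group followed gene length. When genes were split into 4 equal bins by length, in the shortest bin (median 1000 bases), LPS + G-CDs replicates 1, 2 and 3 lay -0.04, 0.25 and 0.56 from the LPS mean on the log2 scale, and in the longest bin (median 8443.5 bases) they lay 0.00, -0.22 and -0.47 from it. Replicate 1 was thus near LPS at every length, while replicate 3 gave short genes higher and long genes lower values. Genes described below whose call was lost or gained when this trend was removed carry that value beside their own.

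**Figure D1:**
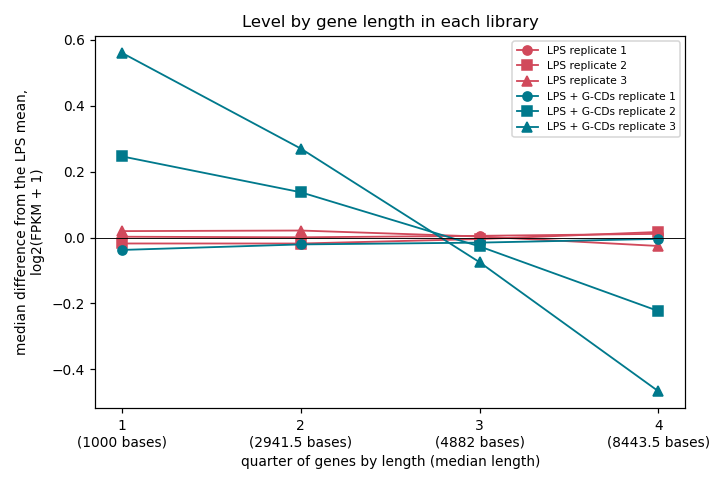
Median difference of each library from the mean of the LPS libraries, on the log2(FPKM + 1) scale, for genes split into 4 equal bins by length. LPS libraries (red) stay near 0, whereas LPS + G-CDs replicate 3 (blue triangles) runs from 0.56 in the shortest bin to -0.47 in the longest bin.

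At an adjusted p under 0.05 (limma, Benjamini-Hochberg over all genes tested), 60 genes differed between LPS + G-CDs and LPS, which is 0.545% of the genes tested. They divided evenly into 30 genes that rose (0.272%) and 30 that fell (0.272%), named as called below. Of these, 23 rises and 25 falls lay outside the heatmap. In all 60 genes the 3 LPS + G-CDs values lay on one side of the 3 LPS values, a state also seen in 28.3% of all genes tested (12.8% on the higher and 15.4% on the lower side). At a looser threshold (unadjusted p under 0.01 with more than 1.5-fold), 280 genes differed (2.54%), 141 higher (1.28%) and 139 lower (1.26%), and the median change of all genes was 0.01 on the log2 scale. The count moved with single libraries. With 1 library left out at a time, the count of 60 became 14, 12 and 20 without LPS replicates 1, 2 and 3, and 349, 11 and 29 without LPS + G-CDs replicates 1, 2 and 3, where 349 genes included all 60. Scaling to TPM gave 95 higher and 160 lower genes at the looser threshold, and removing the length trend gave 110 higher and 173 lower. Within the 30 genes that rose, LPS + G-CDs replicate 1 was the library nearest to LPS in 22, and replicate 3 the farthest in 24. Within the 30 that fell, replicate 1 was nearest in 20 and replicate 3 farthest in 17. Over all genes tested, replicate 1 was nearest in 7231 and replicate 3 farthest in 8336 of 11015.

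**Figure D2:**
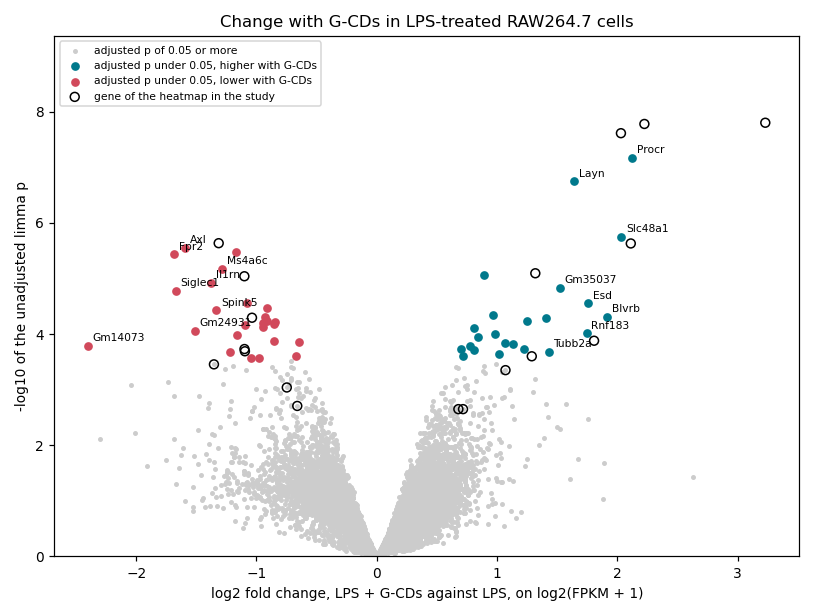
Log2 fold change of LPS + G-CDs against LPS (horizontal axis) and -log10 of the unadjusted limma p (vertical axis) for 11015 genes. Blue and red points are the 23 rises and 25 falls at an adjusted p under 0.05 outside the heatmap, open circles are the 18 heatmap genes, and the 8 largest changes on each side carry their names.

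The genes that rose outside the heatmap began with Procr and a group for heme handling. Procr encodes the endothelial protein C receptor, which holds protein C at the cell surface in the anticoagulant pathway, and lies at chr2:155751117-155755471 (GRCm38). Its level was 8.55, 7.67 and 8.4 FPKM in the LPS libraries and 33.6, 40.8 and 43.7 FPKM with G-CDs. The groups did not overlap and the lowest LPS + G-CDs value was far above the highest LPS value, with a log2 fold change of 2.12 (SE 0.13, limma adjusted p = 0.00019). In control cells Procr was between 0.925 and 1.33 FPKM.

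Slc48a1, a heme transporter of the lysosome and endosome membrane, was at 7.55, 7.56 and 8.43 FPKM with LPS and 31.2, 36.1 and 38.5 FPKM with G-CDs. Blvrb, biliverdin reductase B, which acts downstream of heme breakdown, was at 10.9, 10.6 and 11.8 FPKM with LPS and 30.4, 45.6 and 64.4 FPKM with G-CDs. Both genes rose without overlap, Slc48a1 by 2.03 (limma adjusted p = 0.0032) and Blvrb by 1.92 on the log2 scale (limma adjusted p = 0.021), and Slc48a1 varied less among its replicates. Slc11a1, the metal ion pump of the phagosome membrane, moved by a smaller amount with a tight spread. It was at 16.8, 15.4 and 17 FPKM with LPS and 30.7, 30.8 and 32.4 FPKM with G-CDs, a change of 0.89 (SE 0.10, limma adjusted p = 0.0067). Members of 31 gene lists are given by their counts and median log2 fold change. Beside those counts, 0.272% of all genes tested were called rises and 0.272% called falls. Together with Hmox1, the heme oxygenase of the heatmap, Slc48a1, Blvrb and Slc11a1 made up the 4 called rises among 23 tested members of the heme and iron list. The 1 called fall was Cp (ceruloplasmin), a copper enzyme that oxidizes iron for export, with 1.32, 1.52 and 1.32 FPKM against 0.318, 0.277 and 0.171 FPKM. Its values rest on 174 to 201 reads per LPS library and 23 to 44 reads per LPS + G-CDs library, and its log2 fold change of -0.93 was no longer called when the length trend was removed (-0.68, limma adjusted p = 0.12). Ftl1, the ferritin light chain that stores iron, stood at 524, 555 and 643 FPKM with LPS and 1049, 1681 and 2788 FPKM with G-CDs. It had no overlap and a log2 difference of 1.57, and passed the looser threshold but not the adjusted test (limma adjusted p = 0.14). With the length trend removed it was called (1.29, limma adjusted p = 0.037). The genome holds close copies of this gene, so its reads are uncertain, by an amount that was not measured here. Alas1, which makes the first intermediate of heme, was at 7.65, 6.8 and 6.96 FPKM and 10.6, 11.7 and 13.8 FPKM, also past the looser threshold only (log2 difference 0.67, limma adjusted p = 0.065). Over the list 7 tested members were higher and 1 lower at the looser threshold. Of these, Hebp2, a heme-binding protein gene of the heatmap, passed the filter through the LPS + G-CDs libraries alone and so had to be higher, and Cp through the LPS libraries alone and so had to be lower. The list median, with both genes included, was 0.21, or 0.06 with the length trend removed, beside 0.01 for all genes.

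Esd, S-formylglutathione hydrolase, which completes the glutathione-dependent removal of formaldehyde, was at 60.1, 64 and 65.3 FPKM with LPS and 163, 208 and 296 FPKM with G-CDs. The groups did not overlap, and the change was 1.76 on the log2 scale (SE 0.22, limma adjusted p = 0.016). About 14.1% of the 50-base words of its transcript also occur in other genes, so part of its reads could have been split. Pgd, the 6-phosphogluconate dehydrogenase that makes NADPH in the pentose phosphate pathway, was at 58.9, 54.7 and 60.7 FPKM with LPS and 98.9, 116 and 136 FPKM with G-CDs. This gene rose by 0.99 (SE 0.15, limma adjusted p = 0.029), about 2.01-fold on FPKM. Control cells had 99.1, 84.6 and 102 FPKM of Pgd, above the LPS libraries. Its partner G6pdx, glucose-6-phosphate dehydrogenase, was at 81, 79.4 and 83 FPKM with LPS and 132, 131 and 117 FPKM with G-CDs, past the looser threshold only (log2 difference 0.63, limma adjusted p = 0.14). Pcx, pyruvate carboxylase, which feeds the citric acid cycle, rose by 0.7.

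Further rises were Layn, Rnf183, Creg1, Cacng8, Gm35037, Cd300a and Cd151. Layn (layilin), a membrane receptor for hyaluronan at chr9:51054640-51077094, was at 5.17, 4.93 and 4.94 FPKM with LPS and 17.2, 16.8 and 19.3 FPKM with G-CDs. The libraries of each group lay close together and apart from the other group, with a log2 fold change of 1.64 (SE 0.11, limma adjusted p = 0.00039) and control values of 8.81, 9.14 and 7.39 FPKM between the groups. Its call was kept under all 16 alternatives, as were those of Procr and Slc48a1 outside the heatmap and of Hmox1, Srxn1, Akr1b8 and Gclm within it. Rnf183, a membrane-bound ubiquitin ligase, was at 1.71, 0.998 and 1.08 FPKM with LPS and 5.26, 5.96 and 8.73 FPKM with G-CDs, a change of 1.75 (limma adjusted p = 0.029). Creg1, a glycoprotein of the secretory and lysosomal pathway, was at 23.9, 23.9 and 25 FPKM with LPS and 38.9, 51.5 and 62.6 FPKM with G-CDs. It rose by 1.02 (limma adjusted p = 0.045) without overlap, and control cells had 42.5, 43.5 and 50.9 FPKM. Cacng8, a γ subunit of the family that accompanies calcium channels and AMPA receptors, was at 3.05, 1.92 and 3.4 FPKM with LPS and 6.52, 6.55 and 8.65 FPKM with G-CDs (log2 fold change 1.13, limma adjusted p = 0.037). Gm35037, a gene without an assigned product, lies near it on the same chromosome, at chr7:3451357-3475020 against chr7:3390683-3415648, and was at 4.86, 6.3 and 6.25 FPKM with LPS and 17.6, 22.5 and 15.8 FPKM with G-CDs. Neither gene overlapped between the groups, and Gm35037 rose by 1.52 (limma adjusted p = 0.0095). The inhibitory leukocyte receptor Cd300a rose by 0.84 and the tetraspanin Cd151 by 0.78, the latter not called once the length trend was removed (limma adjusted p = 0.088).

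The remaining rises had no theme of their own. Msantd3 was at 1.83, 1.65 and 1.57 FPKM with LPS and 4.07, 5.46 and 6.89 FPKM with G-CDs, a change of 1.25 (limma adjusted p = 0.022). The transcript 2210408F21Rik was at 1.05, 0.572 and 0.801 FPKM with LPS and 2.56, 2.95 and 4.23 FPKM with G-CDs, while control cells had 8.86, 7.37 and 11.5 FPKM. It rose by 1.22 (limma adjusted p = 0.041), with all LPS + G-CDs values below all control values. Tubb2a, a β-tubulin, was at 3.28, 1.84 and 3.72 FPKM with LPS and 6.96, 9.61 and 12.2 FPKM with G-CDs (log2 fold change 1.43, limma adjusted p = 0.043), but 49.6% of its 50-base words occur in other genes, most of them in Tubb2b. The kinesin motor gene Kif3c rose by 0.97, Prkar2b, a regulatory subunit of protein kinase A, by 0.81, Psmd5, a chaperone of proteasome assembly, by 0.81, and Mettl7a1 by 0.72. Kif3c shares 43.4% of its words with other genes and Mettl7a1 24.8%, and Mettl7a1 was not called once the length trend was removed (limma adjusted p = 0.18). Prkar2b and Mettl7a1 passed the filter through the LPS + G-CDs libraries alone and so had to differ. A pair of pseudogenes, Gm21399 and Gm8566, rose by 1.41 and 1.07, and of their words 30.7% are shared with Prdx1 and 32.9% with Sod1, so their reads cannot be told apart from those of these coding genes with certainty. Gm8566 was not called once the length trend was removed (limma adjusted p = 0.069).

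**Figure D3:**
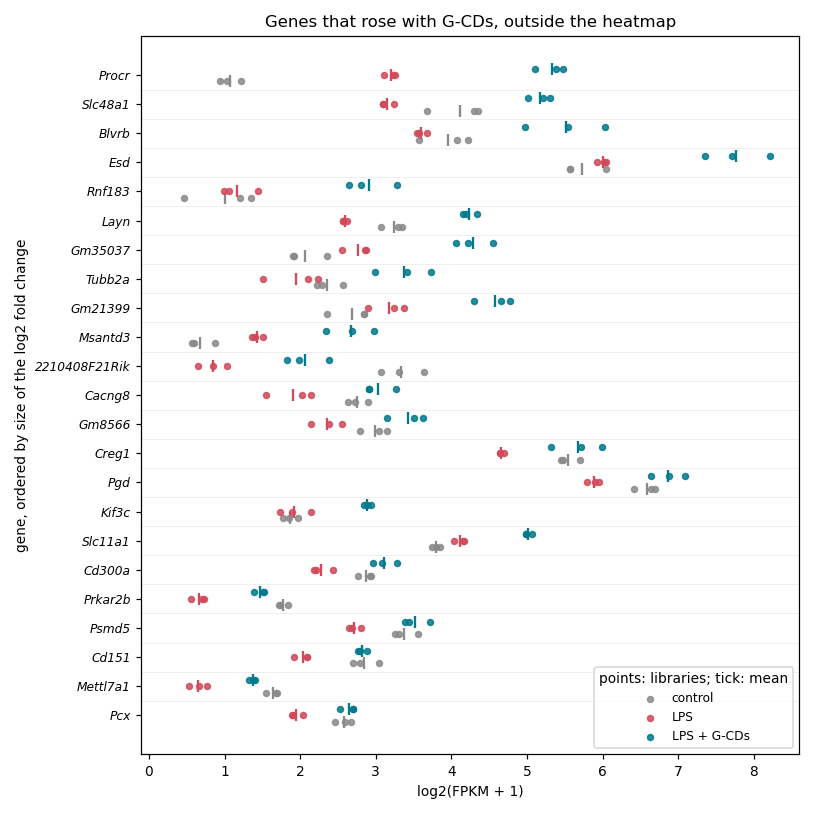
Level of the 23 genes that rose outside the heatmap, as log2(FPKM + 1), in each control (gray), LPS (red) and LPS + G-CDs (blue) library, with a tick at each group mean. Every blue point lies to the right of every red point of its gene, and Kif3c, Slc11a1 and Mettl7a1 have the closest blue points.

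Promoters of the rises were read for the core of the antioxidant response element, TGACNNNGC on either strand. The table of RefSeq promoters (GRCm38.p6), each from 250 bases before to 50 bases after a gene start, held 20 of the 23 rises outside the heatmap. The core occurred in 3 of these genes (15%), beside 17.2% of all tested genes with a promoter and 14% of all 27025 genes in the table. With the heatmap rises included it was in 6 of 26 genes (23.1%). The AP-1 motif TGANTCA was in 2 of the 20 genes (10%) and in 5 of the 26 (19.2%), beside 5.86% of tested genes and 8.97% of all genes in the table, and the NF-κB-like motif given below for the falls was in 0. The windows of the 3 genes follow, with the core in capitals.
Procr, chr2:155750967-155751266, + strand: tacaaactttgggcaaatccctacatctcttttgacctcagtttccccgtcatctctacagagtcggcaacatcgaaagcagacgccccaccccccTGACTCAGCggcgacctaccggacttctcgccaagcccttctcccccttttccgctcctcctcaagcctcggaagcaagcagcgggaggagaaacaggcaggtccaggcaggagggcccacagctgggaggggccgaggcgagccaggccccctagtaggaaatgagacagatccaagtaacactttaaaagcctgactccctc
2210408F21Rik, chr6:31220101-31220400, + strand: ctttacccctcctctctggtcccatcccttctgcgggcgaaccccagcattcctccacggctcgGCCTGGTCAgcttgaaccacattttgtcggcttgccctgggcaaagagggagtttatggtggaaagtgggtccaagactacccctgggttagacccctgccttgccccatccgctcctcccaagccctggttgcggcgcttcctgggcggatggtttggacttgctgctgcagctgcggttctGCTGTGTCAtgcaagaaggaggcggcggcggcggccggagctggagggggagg
Pgd, second of 2 starts, chr4:149166033-149166332, - strand: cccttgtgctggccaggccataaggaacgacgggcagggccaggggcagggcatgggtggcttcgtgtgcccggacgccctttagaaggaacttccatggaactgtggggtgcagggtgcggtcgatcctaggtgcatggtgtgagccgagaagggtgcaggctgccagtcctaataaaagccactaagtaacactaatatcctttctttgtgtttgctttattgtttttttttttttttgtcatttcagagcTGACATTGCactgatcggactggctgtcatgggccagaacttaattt
In Procr the core reads TGACTCAGC and begins at position -154 from the start, and its first 7 bases are also a match to the AP-1 motif TGANTCA. 2210408F21Rik holds 2 cores, both on the opposite strand. In Pgd the core lies after the start, and the other start of the gene has none. A match is a description of letters only. Among the falls outside the heatmap, 16 of 25 genes had a promoter in the table, of which 4 (25%) held the core, 3 (18.8%) TGANTCA and 2 (12.5%) an NF-κB-like motif (GGG, any 2 bases and TTTCC, on either strand), beside 5.86% and 2.08% of tested genes for the latter motifs.

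The falls were led, among genes with a known product, by receptors of the macrophage surface. Siglec1, a sialic acid-binding adhesion receptor, was at 12.5, 11.6 and 12.5 FPKM with LPS and 4.63, 2.76 and 2.36 FPKM with G-CDs. Axl, a receptor kinase for the clearance of dying cells, was at 5.43, 5.58 and 5.34 FPKM with LPS and 1.48, 1.28 and 0.721 FPKM with G-CDs. Both fell without overlap, Siglec1 with a log2 fold change of -1.67 (limma adjusted p = 0.010) and Axl of -1.59 (limma adjusted p = 0.0034). Msr1, the class A scavenger receptor, completed the 3 called falls among 17 tested uptake and lectin receptors. It was at 50.2, 53.9 and 52.4 FPKM with LPS and 27.5, 26.1 and 26.1 FPKM with G-CDs, a change of -0.95 (SE 0.14, limma adjusted p = 0.024), with LPS + G-CDs values still above the 3.57, 5 and 5.38 FPKM of control cells. The whole uptake list was split, with 8 members above and 9 below 0 and a median of -0.06, or 0.07 without LPS + G-CDs replicate 3 and 0.08 with a mean FPKM of at least 5.

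Itgal, Cd300e and Ms4a6c, which encode leukocyte membrane proteins, fell as well. Itgal, the α chain of the integrin LFA-1, was at 19.9, 18.8 and 19.3 FPKM with LPS and 10.8, 7.74 and 5.43 FPKM with G-CDs. The LPS + G-CDs libraries differed among themselves but all stayed below LPS, with a log2 fold change of -1.22 (limma adjusted p = 0.044). Cd300e, an activating receptor of monocytes, was at 5.89, 5.48 and 6.56 FPKM with LPS and 2.62, 2.48 and 1.4 FPKM with G-CDs, a change of -1.16 (limma adjusted p = 0.029). Cd300e and Cd300a lie in the same cluster, at chr11:115051917-115062177 and chr11:114890041-114904654, and moved in opposite directions. Ms4a6c, a membrane protein of the MS4A family, was at 11.1, 10.8 and 12.4 FPKM with LPS and 4.22, 3.79 and 4.31 FPKM with G-CDs (log2 fold change -1.29, limma adjusted p = 0.0062). It shares 56.9% of its 50-base words with other genes, mainly BE692007. In the list of costimulation and adhesion genes, Itgal was the 1 called member of 15. Of the 15, 13 were below 0 and 9 had no overlap on the lower side, beside 15.4% of all genes tested. The list had a median of -0.42, the lowest of the 31 lists in this fit, or -0.37 with the length trend removed, where the chemoattractant and nucleotide receptors were lower, and each LPS + G-CDs library taken alone was below LPS (list medians -0.21, -0.34 and -0.40).

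Formyl peptide receptors, which guide phagocytes toward bacterial and mitochondrial peptides, fell from low levels. Fpr2 was at 3.68, 3.47 and 4.09 FPKM with LPS and 0.427, 0.232 and 0.824 FPKM with G-CDs, from 62 to 77 reads against 5 to 15 reads per library. Fpr1 was at 2.62, 1.97 and 1.4 FPKM and 0.575, 0.546 and 0.376 FPKM, from 27 to 48 reads against 7 to 12 reads. The groups did not overlap in either gene, with log2 fold changes of -1.68 (limma adjusted p = 0.0037) and -0.98 (limma adjusted p = 0.050), the latter just inside the threshold and not called with the length trend removed (limma adjusted p = 0.064). Fpr2 shares 37.2% of its words with other genes. Has1, a hyaluronan synthase, is their neighbor, with Has1 at chr17:17843323-17855205, Fpr1 at chr17:17876471-17883940 and Fpr2 at chr17:17887824-17893952, and it fell from 1.23, 1.27 and 1.51 FPKM to 0.26, 0.107 and 0.268 FPKM, with a log2 fold change of -0.95. These 3 genes, Cp and the ribosomal RNA gene Gm24931 passed the filter through the LPS libraries alone and so had to be lower. Gm24931 had 2, 2 and 5 reads in the LPS libraries and 0 with G-CDs, too few for a fold, and was not called with the length trend removed (limma adjusted p = 0.056). Of the 15 tested chemoattractant and nucleotide receptors, 14 were below 0 with a median of -0.29 (-0.45 with the length trend removed). Among them, 9 had no overlap on the lower side and 0 on the higher side, beside 15.4% and 12.8% of all genes tested. Fpr1 and Fpr2, which had to be lower, are included in these counts. The 3 LPS + G-CDs libraries gave list medians of -0.33, -0.31 and -0.37, close to one another. Cx3cr1, the fractalkine receptor, was at 33.5, 31.3 and 30.7 FPKM with LPS and 23.8, 18 and 14.4 FPKM with G-CDs, with no overlap but past the looser threshold only (log2 difference -0.76, limma adjusted p = 0.22).

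Interleukin-1 family genes fell in part. Il1rn, the receptor antagonist of this family, was at 136, 139 and 128 FPKM with LPS and 55.4, 51.4 and 46.7 FPKM with G-CDs (log2 fold change -1.38, limma adjusted p = 0.0083). Il1f6, which encodes IL-36α and lies near it on chromosome 2, was at 5.74, 5.17 and 3.58 FPKM with LPS and 1.64, 1.57 and 1.85 FPKM with G-CDs, and was listed at 0 in control cells. It fell by 2.86-fold on FPKM, with a log2 fold change of -1.1 (SE 0.16, limma adjusted p = 0.023). Il1a, the third of the family to fall, was at 146, 159 and 138 FPKM with LPS and 89.7, 76.7 and 68.2 FPKM with G-CDs (log2 fold change -0.91, limma adjusted p = 0.022). Il1b was at 418, 432 and 420.2 FPKM with LPS and 297, 339 and 412 FPKM with G-CDs, and the LPS + G-CDs values were lower in every library but spread from far below to just below LPS (log2 difference -0.29, 95% interval -0.60 to 0.02, limma adjusted p = 0.32). The difference was -0.54 with the length trend removed (limma adjusted p = 0.056). Among 28 tested cytokines, 3 fell and 0 rose at the adjusted threshold (the third being Lta of the heatmap beside Il1rn and Il1a; Il1f6 was not in this list), and 20 were below 0, with a median of -0.19, or -0.34 with the length trend removed. Il15, which supports natural killer and T cells, stood on the other side, at 0.384, 0.481 and 0.761 FPKM with LPS and 1.32, 1.54 and 2.24 FPKM with G-CDs, past the looser threshold only (limma adjusted p = 0.15). It passed the filter through the LPS + G-CDs libraries alone, so its values had to be separate.

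Edn1 (endothelin-1) was at 24.5, 27 and 21.6 FPKM with LPS and 11.1, 9.65 and 9.95 FPKM with G-CDs, and its call was kept under all 16 alternatives. Its log2 fold change was -1.17 (SE 0.11, limma adjusted p = 0.0036), and it was listed at 0 in control cells. Spink5, a serine protease inhibitor, was at 31, 32.5 and 28.4 FPKM with LPS and 13.7, 12.1 and 9.28 FPKM with G-CDs, a change of -1.33 (limma adjusted p = 0.019). The matrix metalloproteinase Mmp9 was at 10.5, 10.7 and 9.87 FPKM with LPS and 4.59, 5.77 and 4.75 FPKM with G-CDs. It fell by 2.05-fold on FPKM (log2 fold change -0.91, limma adjusted p = 0.018) with close replicates in both groups. Arhgef3, an activator of RhoA, was at 19.5, 17.9 and 16.5 FPKM with LPS and 11, 7.34 and 6.71 FPKM with G-CDs (log2 fold change -1.05, limma adjusted p = 0.049). Lix1 was at 10.4, 11.4 and 9.23 FPKM with LPS and 5.04, 4.61 and 3.59 FPKM with G-CDs (log2 fold change -1.08, limma adjusted p = 0.016). In both the groups were separate, and 15.9% of the words of Lix1 occur in other genes. The Src-family kinase Fgr fell by a log2 fold change of -0.85, Rasgef1b, an exchange factor for Ras-type GTPases, of -0.85, Hdc, the enzyme that makes histamine, of -0.67, and Pid1 of -0.64. With the length trend removed the last 3 were not called (limma adjusted p = 0.22, 0.13 and 0.15). Gm14073 had the largest log2 fold change of the falls, -2.4, on 47 to 72 reads per LPS library against 17, 10 and 1 reads with G-CDs.

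**Figure D4:**
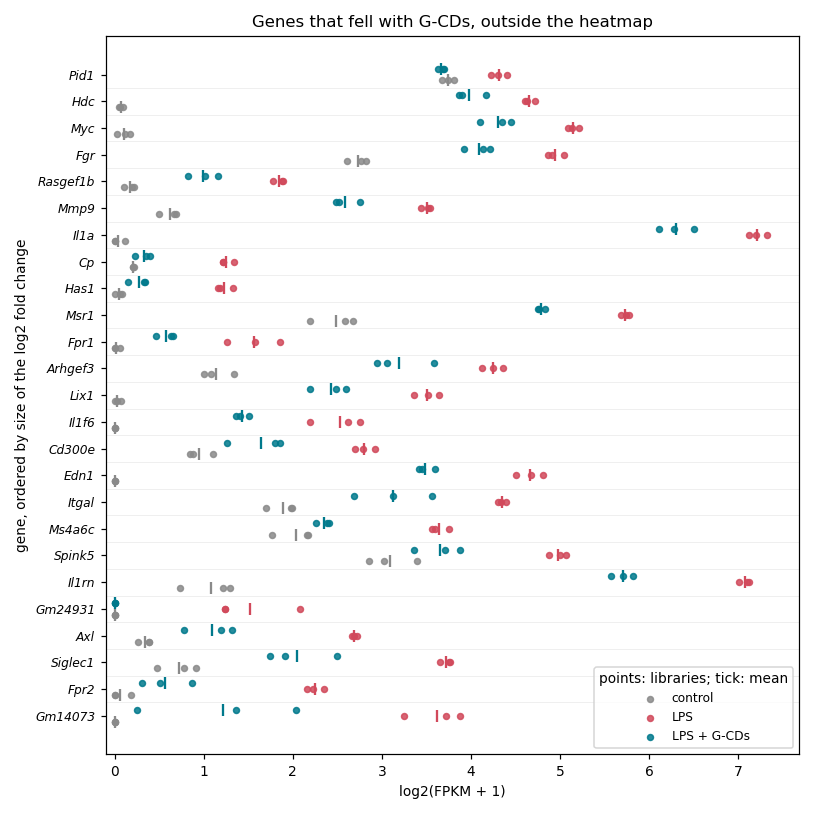
Level of the 25 genes that fell outside the heatmap, as log2(FPKM + 1), in each control (gray), LPS (red) and LPS + G-CDs (blue) library, with a tick at each group mean. Every blue point lies to the left of every red point of its gene.

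Early transcription factors and feedback regulators of LPS signaling went both ways. Myc, a transcription factor of growth, was at 34.1, 33.2 and 36 FPKM with LPS and 16.2, 19.3 and 20.9 FPKM with G-CDs, against at most 0.13 FPKM in control cells. It fell with a log2 fold change of -0.85 (SE 0.12, limma adjusted p = 0.022) and was the 1 called member of 28 immediate-early and feedback genes, of which 18 were below 0 (median -0.23). At the looser threshold 2 members were higher and 5 lower. Egr1 was at 20.6, 20.1 and 20 FPKM with LPS and 13.6, 11.5 and 9.21 FPKM with G-CDs, and passed the looser threshold only, as did Egr3 and Dusp16 (limma adjusted p = 0.13, 0.10 and 0.22). Egr3, a heatmap gene, passed the filter through the LPS libraries alone and so had to be lower. On the other side of this list, Atf3, a stress-responsive transcription factor, was at 64.4, 58.1 and 54.7 FPKM with LPS and 84.3, 90 and 108 FPKM with G-CDs, and Ier3 was at 1099, 1039 and 1047 FPKM and 1455, 1754 and 2047 FPKM, both past the looser threshold (limma adjusted p = 0.086 and 0.21). Among 32 NF-κB pathway and feedback genes, Tnfaip3 of the heatmap was the 1 called fall. Of the 32, 14 had no overlap on the lower and 1 on the higher side, beside 15.4% and 12.8% of all genes tested. The median was -0.16, or -0.10 without LPS + G-CDs replicate 3 and -0.32 with TPM. Malt1, a heatmap gene for the protease of the CARD-BCL10-MALT1 complex, was at 40.2, 38.2 and 37 FPKM with LPS and 21.6, 13.9 and 9.92 FPKM with G-CDs. Nfkbiz, which encodes the atypical inhibitor IκBζ, was at 164, 168 and 158 FPKM with LPS and 112, 94.3 and 72.3 FPKM with G-CDs. Irak3, an inhibitor of Toll-like receptor signaling, was at 16.1, 18 and 15.2 FPKM with LPS and 11, 8.89 and 7.42 FPKM with G-CDs. These 3 genes did not overlap between the groups and passed the looser threshold but not the adjusted test (limma adjusted p = 0.061, 0.10 and 0.081), and each was lowest in replicate 3. Malt1 was called with the length trend removed (-1.04, limma adjusted p = 0.0041), and Nfkbiz and Irak3 were not (limma adjusted p = 0.052 and 0.056). The receptor gene Tnfrsf1b was likewise past the looser threshold only, with 147, 145 and 142 FPKM against 99.7, 85.8 and 79.4 FPKM (log2 difference -0.71, limma adjusted p = 0.063), and was called with the length trend removed (limma adjusted p = 0.037). Of 20 Toll-like receptor and adaptor genes, 0 were called at the adjusted threshold and 1 was lower at the looser one (Irak3), and 13 were below 0 (median -0.09, or -0.16 with the length trend removed).

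Chemokines lay on both sides of 0. Ccl22, a heatmap gene that attracts T cells, was the 1 called fall of 13 tested chemokines, of which 6 were above and 7 below 0. The list median was -0.07, or 0.10 without LPS + G-CDs replicate 1 and 0.20 with a mean FPKM of at least 5. Ccl17, its neighbor in function, was at 9.57, 6.06 and 7.23 FPKM with LPS and 2.96, 0.937 and 4.29 FPKM with G-CDs, and Ccl2 was at 39.5, 43.5 and 45.4 FPKM and 18.6, 28.1 and 34.1 FPKM. Both lay wholly below LPS and passed the looser threshold only (limma adjusted p = 0.19 and 0.21), and with the length trend removed Ccl2 was called (-0.96, limma adjusted p = 0.012). Saa3, an acute-phase protein, was at 40.1, 29.1 and 32.7 FPKM with LPS and 6.63, 10.6 and 20.7 FPKM with G-CDs, with a log2 difference of -1.48 that did not pass the adjusted test (limma adjusted p = 0.12) and that did so with the length trend removed (-1.65, limma adjusted p = 0.025). Interferon-stimulated genes were balanced in this fit, with 21 of 42 above and 21 below 0, and Siglec1 was the 1 called fall. Their median was 0.05, or -0.06 with the length trend removed, -0.11 with TPM and 0.12 with a mean FPKM of at least 5.

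Several genes were also followed by other methods in the study. Of these, Hmox1 and Nos2, both of the heatmap, were called. Tnf was at 2539, 2449 and 2549 FPKM with LPS and 2448, 2669 and 2748 FPKM with G-CDs, overlapping, with a log2 difference of 0.06 (95% interval -0.49 to 0.61, limma adjusted p = 0.89), and the sign turned with TPM (-0.11) and with the length trend removed (-0.21). Il6 was at 17.1, 20.7 and 17.7 FPKM with LPS and 13.6, 16.8 and 18.9 FPKM with G-CDs, also overlapping (log2 difference -0.17, 95% interval -0.48 to 0.14, limma adjusted p = 0.46), with a value of -0.36 once the length trend was removed (limma adjusted p = 0.19). For neither gene was a difference detectable beyond the spread of these libraries. Ptgs2 (cyclooxygenase-2) was at 1445, 1587 and 1349.5 FPKM with LPS and 1302, 953 and 539 FPKM with G-CDs, and Nlrp3, the inflammasome sensor, was at 259.5, 261 and 259 FPKM and 220.5, 178 and 129 FPKM. Both lay wholly below LPS but fanned out by library, with replicate 1 near LPS and replicate 3 far from it, and neither passed (limma adjusted p = 0.31 and 0.31). Of the inflammasome list, Casp1 stood higher with G-CDs, at 18.5, 21.5 and 18.1 FPKM with LPS against 29.3, 31.8 and 41.1 FPKM, as did Ninj1, the mediator of plasma membrane rupture, at 52.3, 50.4 and 55.2 FPKM against 84.9, 111 and 165 FPKM. Both passed the looser threshold only (limma adjusted p = 0.18 and 0.14), Ninj1 was called with the length trend removed (0.85, limma adjusted p = 0.041), and the list of 12 was split 6 to 6 about 0.

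Lists of Nrf2-linked enzymes had medians above 0. Those described here held 0 to 2 called rises each among 10 to 19 tested members, beside 0.272% of all genes tested. In 3 of these lists the median was near 0 in LPS + G-CDs replicate 1. The medians in replicates 1, 2 and 3 were 0.06, 0.34 and 0.51 for glutathione and cystine import, 0.0025, 0.26 and 0.65 for thioredoxin and peroxiredoxin, and 0.06, 0.30 and 0.36 for pentose phosphate and NADPH genes. Among 14 glutathione and cystine import genes, 13 were above 0 (median 0.30, or 0.37 with the length trend removed), 1 was called (Gclm, in the heatmap) and 3 were higher at the looser threshold. Slc7a11, the cystine importer, was at 16.4, 16.8 and 16.2 FPKM with LPS and 52.9, 34.3 and 27 FPKM with G-CDs, while its partner chain Slc3a2 was at 77.9, 72.6 and 81.2 FPKM and 111, 130.3 and 153 FPKM. Both passed the looser threshold only (limma adjusted p = 0.10 and 0.096), and the order of the LPS + G-CDs libraries was opposite, with replicate 1 highest for Slc7a11 (13922 bases) and lowest for Slc3a2 (3529 bases). Both were called once the length trend was removed, Slc7a11 at 1.47 and Slc3a2 at 0.67 (limma adjusted p = 0.0008 and 0.035). Txnrd1, thioredoxin reductase, was at 86.6, 85.5 and 89.9 FPKM with LPS and 173, 157 and 124 FPKM with G-CDs. Cat, the catalase gene of the heatmap, was at 16.5, 19.5 and 15.5 FPKM and 39.6, 38.2 and 33.5 FPKM. Neither overlapped, and both passed the looser threshold only (limma adjusted p = 0.13 and 0.067). Txnrd1 was called with the length trend removed (0.92, limma adjusted p = 0.0064) and Cat was not (limma adjusted p = 0.11). Of 17 thioredoxin and peroxiredoxin genes, 13 were above 0 (median 0.29) and 2 were called, both of the heatmap (Srxn1 and Prdx1).

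The carbonyl, quinone and epoxide enzymes had a median of 0.41 (0.36 with the length trend removed), with 17 of 19 members above 0. Of the 19, 12 had no overlap on the higher side and 0 on the lower, beside 12.8% and 15.4% of all genes tested. The called members were Esd and Akr1b8, the latter of the heatmap. Cbr3, a carbonyl reductase, was at 1.1, 1.16 and 0.933 FPKM with LPS and 2.48, 4.32 and 6.02 FPKM with G-CDs, and the aldose reductase Akr1b3 was at 30.1, 27.9 and 30.8 FPKM and 43.3, 54 and 71.5 FPKM. Each was separate from LPS and passed the looser threshold only (limma adjusted p = 0.11 and 0.12). Glutathione S-transferases had 8 of 10 members above 0 (median 0.39, or 0.18 with the length trend removed) and 1 called, Gstp1 of the heatmap, which shares 62.3% of its words with Gstp2. Gstt3 of this list, also a heatmap gene, passed the filter through the LPS + G-CDs libraries alone and so had to be higher. In the pentose phosphate and NADPH list 12 of 16 were above 0 (median 0.31), with Pgd as the called member. Superoxide and peroxide enzymes were mixed, with 8 of 12 above 0, a median of 0.04 and 0 called. Keap1, the adaptor that marks Nrf2 for degradation, was at 19.9, 17.9 and 20.5 FPKM with LPS and 21.6, 21.2 and 22.8 FPKM with G-CDs, higher without overlap but not past either threshold (log2 difference 0.16, limma adjusted p = 0.38). Nfe2l2, which encodes Nrf2, was at 29.1, 31.5 and 30.9 FPKM and 28.4, 30.5 and 31.3 FPKM, overlapping (log2 difference -0.02, limma adjusted p = 0.95), and its sign turned without LPS replicate 2 or without LPS + G-CDs replicate 1. The Keap1-Nrf2 regulators were mixed as a list, with 5 of 11 above 0, a median of -0.02 and Sqstm1, the autophagy adaptor of the heatmap, as the 1 called rise.

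**Figure D5:**
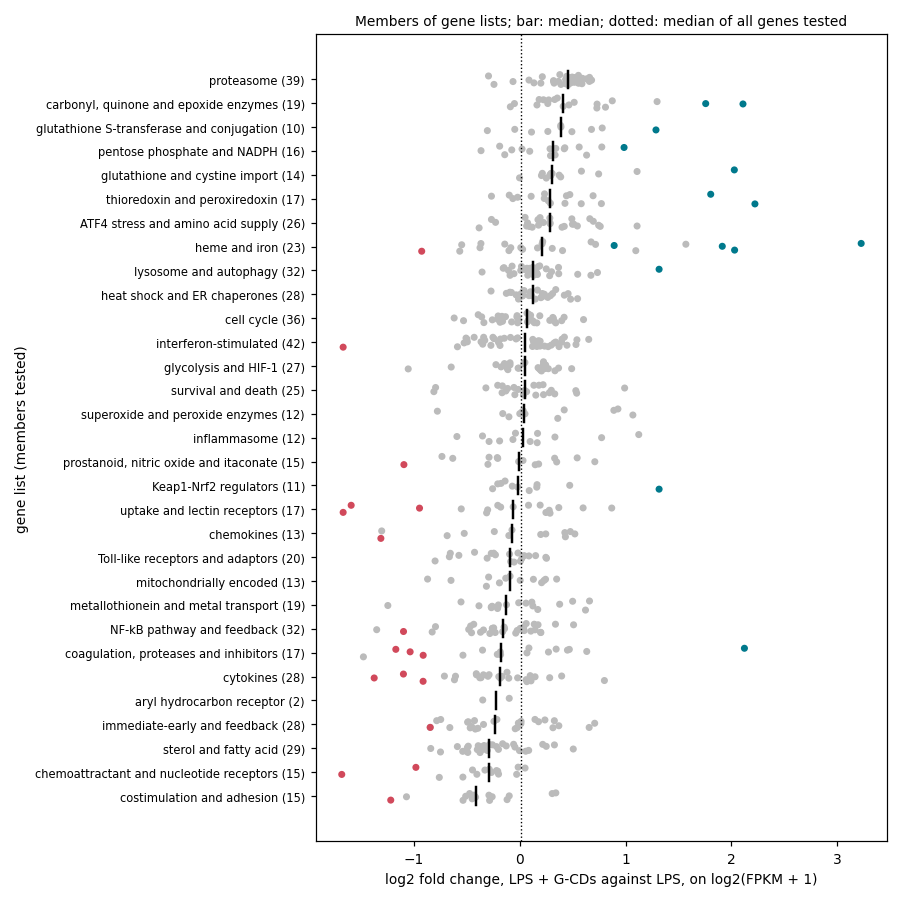
Log2 fold change of LPS + G-CDs against LPS for the tested members of 31 gene lists, ordered by median (black bar), with called rises in blue and called falls in red. The dotted line is the median of all genes, 0.01, and medians run from -0.42 for costimulation and adhesion genes to 0.46 for proteasome genes.

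Lists on stress, protein turnover and metabolism held few calls. In the proteasome list 18 of 39 genes had no overlap on the higher side, beside 12.8% of all genes tested. The list had a median of 0.46, the highest in this fit, with 36 genes above 0, yet 0 passed either threshold. With G-CDs its median difference from LPS was 0.07 in replicate 1, 0.43 in replicate 2 and 0.93 in replicate 3, and the median with the length trend removed was 0.32, under those of the glutathione and cystine import (0.37) and carbonyl enzyme (0.36) lists. Proteasome levels therefore differed more among the LPS + G-CDs libraries than between the group means. Among 26 genes of the ATF4 stress response and amino acid supply, 23 were above 0 (median 0.28, or 0.13 with the length trend removed), 0 were called and 4 were higher at the looser threshold, among them Psph of serine synthesis (14.4, 14.6 and 16.2 FPKM against 19, 26.5 and 35.5 FPKM). Lysosome and autophagy genes had 25 of 32 above 0 (median 0.13), with Sqstm1 called and Gabarapl1, an autophagosome protein, past the looser threshold only (18.6, 17.8 and 19.1 FPKM against 26.3, 28.6 and 36.2 FPKM). Heat shock and ER chaperone genes had a median of 0.13 with 0 of 28 past either threshold. Sterol and fatty acid genes lay on the lower side, with 23 of 29 below 0 and a median of -0.29, or -0.17 without LPS + G-CDs replicate 3. On that side 15 had no overlap, beside 15.4% of all genes tested, but 0 passed either threshold. Glycolysis and HIF-1 genes had a median of 0.05 and 1 of 27 lower at the looser threshold, Pfkfb3, which makes an activator of glycolysis and was at 33.7, 31.7 and 27 FPKM with LPS and 21.6, 13.5 and 9.74 FPKM with G-CDs (limma adjusted p = 0.16). Cell cycle genes (36 tested, median 0.07), survival and death genes (25, median 0.05) and metallothionein and metal transport genes (19, median -0.13) had 0 members past either threshold. Mitochondrially encoded genes (13, median -0.09) also had 0, but control replicate 1 was an outlier for them. It held 0.277% mitochondrial reads, against 2.14% and 1.88% in control replicates 2 and 3, and shared the estimate of the spread. The SE was 0.79 for mt-Nd1 and 0.68 for mt-Co1, so the absence of calls cannot show that these genes were unchanged. The mitochondrial median was -0.36 with the length trend removed and -0.26 with TPM. With TPM, where the median of all genes was -0.12, the cell cycle, survival and glycolysis medians were below 0, and those of the heat shock and lysosome lists were -0.02 and -0.03. Only 2 of 8 genes of the aryl hydrocarbon receptor list were tested, both below 0. In the coagulation, protease and inhibitor list of 17, Procr was the called rise, and Edn1, Mmp9 and the heatmap gene Lcn2 were the called falls. The median was -0.18, or 0.06 without LPS + G-CDs replicate 1. Serpinb9 of this list passed the filter through the LPS + G-CDs libraries alone. Of 15 prostanoid, nitric oxide and itaconate genes, Nos2 of the heatmap was the called fall. The median was -0.01, or -0.21 with a mean FPKM of at least 5 and -0.12 with TPM.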

How the data were processed

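The authors sequenced total RNA extracts of the cells on an Illumina platform. The deposited unit is FPKM, given for every gene and library beside gene coordinates and lengths. The aligner, the counting method and the strand setting are not given in the sources used here, and the submitters' processing notes name GRCm38 and mm10. Gene starts and ends equaled those of GENCODE M21 for 98.33% of 54495 shared genes. FPKM multiplied by gene length came out as whole multiples of 1 read, within 0.05 reads, in 100.0% of values, which gave the reads per gene. The library size behind FPKM was 0.88 to 0.98 times the reads on genes in the 6 libraries compared. All value columns could be matched to samples by name.

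The filter kept genes that reached an FPKM of 1 in 3 or more of the 6 LPS and LPS + G-CDs libraries. Values were transformed as log2(FPKM + 1), on which the changes of low genes are understated. A single limma model (version 3.58.1, R 4.3.3) took the 9 libraries in 3 groups, with the prior variance allowed to follow the mean level (eBayes trend), and the contrast was tested two-sided with Benjamini-Hochberg adjustment over 11015 genes. The tests were tested on simulated data. The libraries simulated for the limma fit had the same dispersion in every group, whereas the LPS + G-CDs libraries here spread more than the LPS libraries. Gene lists were described by counts and medians. Genes were named if they were among the 15 largest called rises or falls outside the heatmap, among the largest changes of a list, measured by other methods in the study, or regulators of Nrf2, and other called genes by fold change only. The genes, lists and rules were chosen with earlier results of these data known. Alternatives were a pseudocount of 0.1, no filter and a mean FPKM of at least 5, TPM, median-of-ratios, removal of the gene-length trend, a fit of the 6 libraries alone, voom on the recovered reads, eBayes with no trend, leaving out single libraries, and the replicate number as a block. The length trend removed together with LPS + G-CDs replicate 1 left out was added after seeing the data. Shared sequence is the share of 50-base words of the longest transcript found in other genes of GENCODE M21.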

Additional observations from a re-analysis of the deposited data

How the results depend on the processing

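All 60 called genes kept their sign under each of the 16 alternatives that tested them. The call was kept under all of these by 7 rises and by 3 falls (Ccl22 and Edn1 under 16, Axl under the 15 that tested it). With the length trend removed, 27 rises and 24 falls were still called. The count of 60 became 24 with a pseudocount of 0.1 (18 higher, 6 lower), 37 with TPM, 91 with the length trend removed, 25 with the 6 libraries alone, and 11 to 349 with 1 library left out. With the length trend removed and LPS + G-CDs replicate 1 left out it was 392, of which 52 were among the 60. The 280 genes at the looser threshold became 167 with a mean FPKM of at least 5, 189 to 1378 with 1 library left out and 882 with the added setting. The genes without overlap numbered 3426 to 7715 with 1 library left out, the highest without LPS + G-CDs replicate 1. The causes were not tested. Fewer libraries per group make a state without overlap easier to reach by construction. That count gets no other value from a changed pseudocount or model.

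Same-numbered LPS and LPS + G-CDs libraries deviated together with r = 0.0994, 0.0928 and 0.158, not all above 0.1, so the numbers were not taken as pairs, although each library correlated best with its own number. A replicate block gave 56 calls, 46 of them among the 60, and 486 genes at the looser threshold.

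Signs turned only in genes without a call. With TPM, whose median of all genes was -0.12, the log2 difference was -0.0038 for Mafg, -0.082 for Psma6, -0.11 for Tnf and -0.13 for Hsp90ab1. With the length trend removed it was -0.040 for Bcl2a1d, -0.19 for Psma6, -0.21 for Tnf, -0.090 for Hsp90ab1 and 0.20 for Ikbkb, and with the added setting -0.11 for Psma6, -0.30 for Tnf, -0.11 for Hsp90ab1 and 0.36 for Ikbkb. With 1 library left out, values ranged from -0.052 to 0.019 for Nfe2l2, -0.070 to 0.014 for Rela, -0.064 to 0.47 for Bcl2a1d, -0.011 to 0.39 for Cdk4, -0.18 to 0.31 for Psma6, -0.0064 to 0.086 for Hsp90ab1 and -0.22 to 0.057 for Tiparp.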

Other observations

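Some genes outside every list and outside the rule for naming genes passed the looser threshold without overlap, and the following were chosen after their values were seen. None passed the adjusted test. Osgin1, a growth inhibitor that responds to oxidative stress, was at 0.622, 0.813 and 0.9 FPKM with LPS and 2.2, 2.34 and 3.11 FPKM with G-CDs, beside 1.89, 2.94 and 3.23 FPKM in control cells (log2 difference 0.99, limma adjusted p = 0.060). It passed the filter through the LPS + G-CDs libraries alone and so had to be separate, and it was called with the length trend removed (limma adjusted p = 0.042). Adm, which encodes the peptide adrenomedullin, was at 10.5, 9.62 and 6.76 FPKM with LPS and 17.3, 18.7 and 25.1 FPKM with G-CDs (log2 difference 1.11, limma adjusted p = 0.10). Calcrl, the receptor through which adrenomedullin acts, stood on the other side, at 60.7, 70.5 and 62.2 FPKM with LPS and 36.4, 27.9 and 17 FPKM with G-CDs (log2 difference -1.28, limma adjusted p = 0.094). Dpep2 and Dpep3, membrane dipeptidase genes at chr8:105984944-105991759 and chr8:105973513-105979429 (GRCm38), were both lower with G-CDs. Dpep2 was at 1.94, 2.06 and 2.2 FPKM with LPS and 1.07, 0.482 and 0.536 FPKM with G-CDs, and Dpep3 at 2.6, 2.94 and 2.92 FPKM and 1.26, 1.21 and 1.51 FPKM (limma adjusted p = 0.063 and 0.055), and Dpep3 was called with the length trend removed (limma adjusted p = 0.023).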
